A study of Mus musculus with 18 samples.

Results

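The amino acid transporters of the kidney cortex were taken as every row of the expression tables whose symbol belongs to the solute carrier families Slc1, Slc3, Slc6, Slc7, Slc36, Slc38 or Slc43. The rule found 53 of 15035 rows. Of these, 50 are carriers or carrier subunits and 3 (Slc6a19os, Slc7a6os and Slc36a1os) are genes named for lying opposite a carrier. A few carriers caught by the family names move other substrates, such as the serotonin carrier Slc6a4 and the purine nucleobase carrier Slc43a3. From textbook knowledge the members were sorted by role into 9 apical, 7 basolateral, 7 immune-associated, 5 lysosomal, 9 other Slc6 and 13 other carriers, beside the 3 opposite-strand genes.

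Expression was measured by RNA sequencing in kidney cortex of 18 mice, 3 in each of 6 groups. There were 15 MRL/lpr mice, which carry the lpr mutation of the death receptor gene Fas and develop lymphoproliferation and a lupus-like nephritis, and they received the multi-target treatment, MMF (mycophenolate mofetil, a purine synthesis inhibitor), FK506 (tacrolimus, a calcineurin inhibitor), prednisone (a glucocorticoid) or vehicle. Vehicle was also given to 3 wild type MRL/MpJ mice, called healthy here, which lack the lpr mutation, so that every comparison with them joins genotype, disease and any drug. The sources used here give no dose, age or make-up of the multi-target treatment, and nothing beyond separate mice is said of the replicates.

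Amino acids filtered at the glomerulus are taken back by the proximal tubule. Carriers of the apical brush border bring them into the cell from the urine, and basolateral carriers pass them on to the blood. Many light chains of the Slc7 family work only with a heavy chain, Slc3a1 on the apical side and Slc3a2 on the basolateral side. Activated lymphocytes and macrophages raise another group of carriers for glutamine, leucine, arginine and cystine, and several of these are also induced through the transcription factor Atf4 when amino acids run short.

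Recovered reads per library ranged between 28939845 and 41066953. Among the members the lowest value stood for 5 reads, and 8 members had a median under 100 reads, so that the spread between mice and not counting error set the precision of most of them. The median within-group SD was 0.36 on the log2 scale over the members, against 0.22 over all genes. Fas lay between 7.73 and 8.28 on the log2 scale in the MRL/lpr mice, against 6.63 to 6.85 in healthy mice, a gene-level value that does not read the mutation itself. Some libraries stood apart. Vehicle mouse 36 had the lowest proximal tubule marker level of all mice, vehicle mouse 17 held adipocyte transcripts (Adipoq at 11.30, against 3.89 and 4.07 in vehicle mice 7 and 36), and FK506 mouse 12 held adrenal transcripts (Cyp11a1 at 11.37, against 5.49 and 5.73 in FK506 mice 3 and 24). The 3 healthy mice lay close together, with a mean apical carrier level between -0.10 and 0.09 around their own mean. In bulk tissue, fewer cells of a type and less RNA per cell cannot be told apart.

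Per kilobase of the principal transcript, the members at the highest level in healthy cortex came from several classes, with a pair of apical ones at the top. Slc6a18, an apical carrier of neutral amino acids, stood at 18197 ± 1361 normalised reads per kilobase (SD, n = 3), and Slc3a1, the heavy chain of the apical cystine and dibasic exchanger, at 13773 ± 630. Slc7a12, a light chain whose physiological role is less settled, stood at 7454 ± 832, the basolateral y+LAT1 light chain Slc7a7 at 7155 ± 449, the b0,+AT light chain Slc7a9 at 6310 ± 212, the neutral amino acid carrier Slc6a19 at 5515 ± 886 and the heavy chain Slc3a2 at 4919 ± 213. The SDs of Slc7a12 and Slc7a7 overlap, and so do those of Slc7a9 and Slc6a19 and those of Slc6a19 and Slc3a2. Not all apical carriers were high, since Slc6a20a stood at 428 ± 31.2, Slc7a13 at 256 ± 42.1 and Slc36a2 at 46.5 ± 5.87 normalised reads per kilobase. Among the immune-associated carriers of healthy cortex, Slc38a2 stood at 701 ± 40.8 and Slc1a5 at 487 ± 35.2, the SD of Slc1a5 overlapping that of Slc6a20a, with Slc7a5 at 64.6 ± 2.82, Slc7a1 at 62.6 ± 2.38 and the cystine carrier Slc7a11 at 8.06 ± 0.65. In vehicle-treated MRL/lpr mice the same per-kilobase scale gave 15980 ± 7303 for Slc6a18, 7655 ± 3271 for Slc3a1 and 17.5 ± 5.37 for Slc7a11.

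The disease comparison sets vehicle-treated MRL/lpr mice against healthy MRL/MpJ mice. A gene was called when its limma p, adjusted by Benjamini-Hochberg over all 15035 genes, was under 0.05. In this comparison 12 of the 53 members were called, 22.6% of them, against 22.4% of all genes. Of these, 9 were higher in vehicle mice (15.7% of all genes were called higher) and 3 were lower (6.76% of all genes). At an unadjusted limma p under 0.05 there were 20 members, 37.7%, against 37.2% of all genes, and the groups did not overlap for 25 members, 47.2%, against 52.4%. The members as a whole were thus called about as often as other genes. Their classes had medians of different sign. The median log2 difference was -0.68 over the apical class, -0.11 over the basolateral class and 0.82 over the immune-associated class, against 0.09 over all genes. Quantile normalization shifted the median of all genes by -0.16 in this comparison and gave 6 members higher and 4 lower, where 9.28% of all genes were called higher and 11.9% lower. The count of 12 also rests on single mice, being 5 without vehicle mouse 36 (9.91% of all genes), 15 without vehicle mouse 17 (21.9%), and 6, 5 and 6 without healthy mouse 1, 2 or 3 (11.6%, 12.1% and 12.4%).

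**Figure D1:**
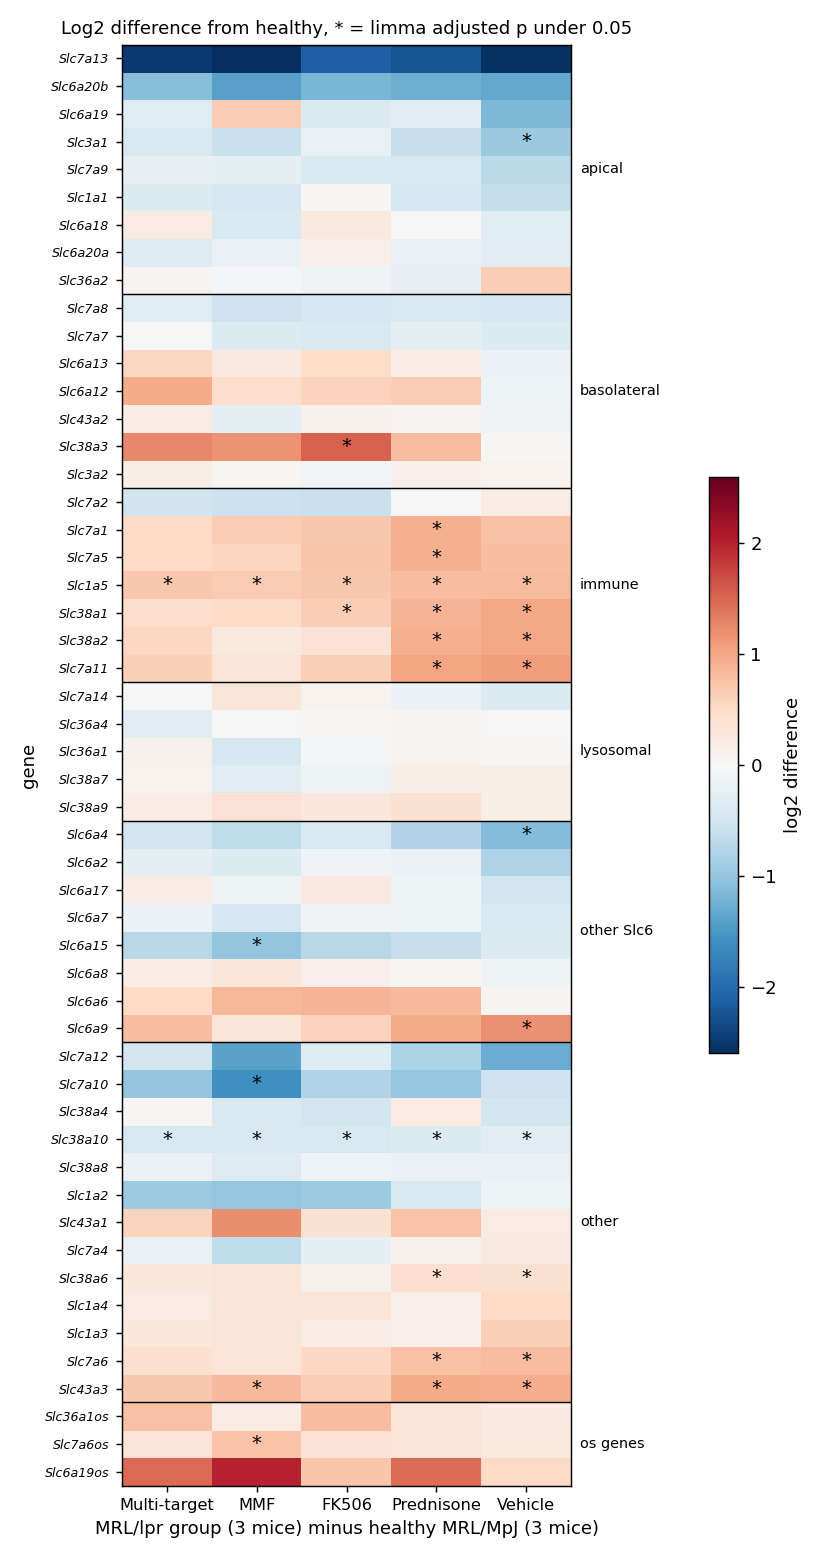
Log2 difference of 52 of the 53 members (rows, grouped by role) between each MRL/lpr group and the healthy mice (columns, 3 mice a group), red for higher and blue for lower than healthy, with a star where the limma adjusted p is under 0.05. Stars gather in the immune-associated rows of the vehicle and prednisone columns, while Slc1a5 and Slc38a10 carry one in all 5 columns, which share the same healthy mice.

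Among the 9 apical carriers, 1 was called lower in vehicle mice and none higher, where 6.76% of all genes were called lower and 15.7% higher. A difference below 0 was found in 8, against 6031 of all 15035 genes. An unadjusted limma p under 0.05 was found in 5, against 37.2% of all genes. The called one was Slc3a1, rBAT, the heavy chain needed to bring the cystine and dibasic exchanger to the brush border. It stood at 14.45, 14.36 and 13.11 on the log2 scale in vehicle mice 7, 17 and 36, against 14.97, 14.85 and 14.97 in healthy mice 1, 2 and 3. All vehicle mice lay below all healthy mice, with mouse 36 far below the other two. The log2 difference was -0.96 ± 0.28 (SE, limma adjusted p = 0.0266), a ratio of 0.514. Without vehicle mouse 36 the difference was -0.53 and the call was lost, and it was also lost on leaving out any 1 healthy mouse. The exons of 14 members overlap a gene on the opposite strand in part. Some 26.5% of the exon bases of Slc3a1 overlap Prepl on the opposite strand, and the library kit does not mark strand. Prepl itself was not called (-0.50 ± 0.22, limma adjusted p = 0.108).

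The promoter of Slc3a1 is shown because it is the called apical gene and holds 2 of the tubule factor motifs searched. It is the RefSeq window on GRCm38.p6, chr17:85028097-85028396, plus strand, from 250 bases before to 50 after the start. Capitals mark the HNF4 site (CAAAGTCCA, first base at -39) and the core of the HNF1 site (GTTAAT or its reverse complement ATTAAC, first base at 1, the base after the start).
Slc3a1: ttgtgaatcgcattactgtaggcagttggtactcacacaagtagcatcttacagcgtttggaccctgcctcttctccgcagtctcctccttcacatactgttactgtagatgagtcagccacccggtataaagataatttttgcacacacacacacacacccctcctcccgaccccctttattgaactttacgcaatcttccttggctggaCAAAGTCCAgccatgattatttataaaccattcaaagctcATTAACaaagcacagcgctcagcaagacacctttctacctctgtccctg
Of 55 RefSeq promoter windows, covering 36 members, 1 held the HNF4 site (1.82%, against 0.475% of all 32851 windows) and 5 held the HNF1 core (9.09%, against 7.1% of all windows). Among the 14217 windows of genes measured here the shares were 0.464% and 5.01%. Of the 9 apical carriers 6 had a window. The members with the core were Slc3a1 and Slc6a20a among the apical carriers, the basolateral Slc6a13 and Slc7a7, and the lysosomal Slc36a1. The full HNF1 palindrome, which contains the core on both strands, was in no member window and in 0.00913% of all windows. Both strands were searched, and these are matches of letters that carry no measurement of binding.

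Slc7a9, b0,+AT, the light chain that pairs with Slc3a1, stood at 13.47, 13.07 and 12.16 in vehicle mice 7, 17 and 36, against 13.60, 13.52 and 13.62 in healthy mice 1, 2 and 3. The groups did not overlap, and the difference of -0.68 ± 0.24 was not called (limma adjusted p = 0.0538). Slc7a13, the other light chain of Slc3a1, which sits in the late proximal tubule, had the lowest difference of all members. Its values were 6.81, 7.97 and 4.75 in vehicle mice 7, 17 and 36, against 9.23, 8.80 and 9.23 in healthy mice, a difference of -2.58 ± 1.09 (limma adjusted p = 0.1), and the vehicle mice spread over more than 3 log2 units.

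Slc6a19, B0AT1, the main apical carrier of neutral amino acids, stood at 13.96, 13.53 and 12.19 in vehicle mice 7, 17 and 36, against 14.63, 14.17 and 14.38 in healthy mice 1, 2 and 3 (-1.17 ± 0.55, limma adjusted p = 0.136). Its neighbour on chromosome 13, Slc6a18, or B0AT3, stood at 15.36, 15.24 and 13.90 in vehicle mice, against 15.20, 15.03 and 15.23 in healthy mice. For Slc6a18 vehicle mice 7 and 17 lay above every healthy mouse and mouse 36 below them all, so that the difference of -0.32 ± 0.30 (limma adjusted p = 0.466) turned to 0.15 without mouse 36. Slc6a19 kept its direction without mouse 36, at -0.65.

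The imino acid carriers Slc6a20a and Slc6a20b are close paralogues that lie next to each other on chromosome 9, and the sources used here do not say how shared reads were assigned. Slc6a20b stood at 12.56, 12.92 and 11.20 in vehicle mice 7, 17 and 36, against 13.57, 13.54 and 13.54 in healthy mice 1, 2 and 3 (-1.32 ± 0.52, limma adjusted p = 0.0788). Slc6a20a stood at 9.79, 9.89 and 10.01 in vehicle mice, against 10.29, 10.08 and 10.20 in healthy mice (-0.30 ± 0.22, limma adjusted p = 0.340). Both had all vehicle mice below all healthy mice, but mouse 36, lowest for Slc6a20b, was the highest vehicle mouse for Slc6a20a. Some 21.1% of the Slc6a20b exon bases overlap Sacm1l on the opposite strand, which was not called (-0.27 ± 0.11, limma adjusted p = 0.0887).

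The glutamate, aspartate and cystine carrier Slc1a1, EAAT3, stood at 13.71, 13.84 and 12.81 in vehicle mice 7, 17 and 36, against 14.19, 14.004 and 14.05 in healthy mice 1, 2 and 3 (-0.63 ± 0.24, limma adjusted p = 0.0753). The groups did not overlap. Its exons share 31.9% of their bases with 4430402I18Rik on the opposite strand, which had a difference of -0.69 ± 0.27 (limma adjusted p = 0.0771), and without strand the reads of this pair cannot be told apart. Slc36a2, PAT2, a glycine and proline carrier that is also known in fat cells, was the 1 apical member above 0. It stood at 6.63, 8.84 and 6.89 in vehicle mice 7, 17 and 36, against 6.93, 6.92 and 6.59 in healthy mice (0.64 ± 0.40, limma adjusted p = 0.259), and without mouse 17 the difference was -0.05.

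**Figure D2:**
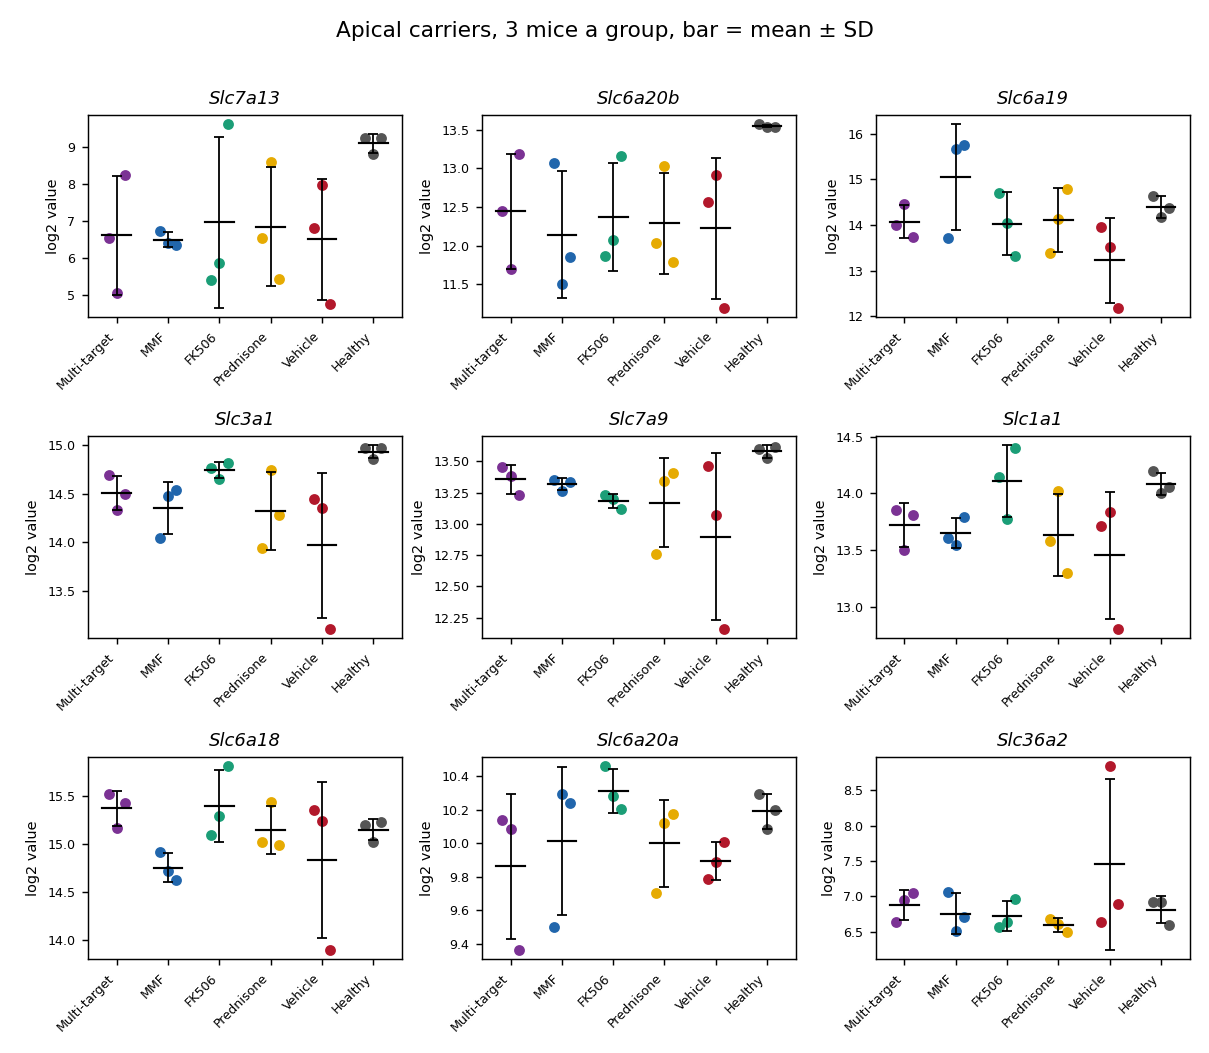
Log2 values of the 9 apical carriers in each mouse (points), with the mean and SD of 3 mice as bars, for the 5 MRL/lpr groups and then the healthy mice. Vehicle mouse 36 is the lowest of all 18 mice for 7 of the 9, and Slc36a2 has 1 high point at 8.84 in vehicle mouse 17.

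Markers of the proximal tubule were measured beside the apical class. Of 19 proximal tubule markers, which share no gene with the carriers, 6 were called lower and none higher in vehicle mice. Over all genes 6.76% were called lower. The median log2 difference of the 19 markers was -0.89. Their mean level, relative to the healthy mean, lay between -1.57 and -0.54 in vehicle mice, against -0.06 to 0.07 in healthy mice, and none of the 19 was near 0 in any library, the lowest log2 value being 8.46. The mean over the apical carriers was -0.56, -0.24 and -1.64 in vehicle mice 7, 17 and 36, beside proximal tubule marker means of -0.54, -0.55 and -1.57 in the same mice. The drop of mouse 36 reached beyond the proximal tubule, since its mean over 6 loop and distal tubule markers was -1.88, against -0.25 and -0.13 in vehicle mice 7 and 17. Of these 6 markers 1 was called lower in vehicle mice and none higher. The part of the tubule markers in the apical result was not tested.

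**Figure D3:**
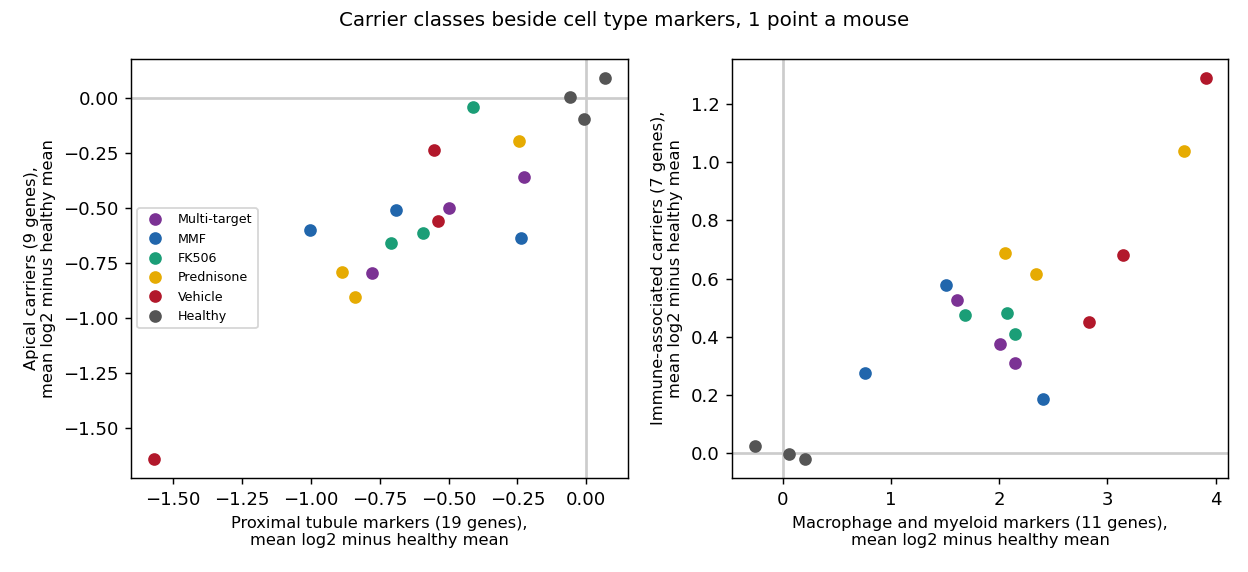
Each point is 1 mouse. The left panel sets the mean log2 level of the 9 apical carriers against that of 19 proximal tubule markers, and the right panel the 7 immune-associated carriers against 11 macrophage and myeloid markers, all relative to the healthy mean. Vehicle mouse 36 lies at -1.57 and -1.64 in the left panel, far from the rest, and at 3.91 and 1.29 in the right panel.

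None of the 7 basolateral carriers was called in the disease comparison, and none had an unadjusted limma p under 0.05, against 22.4% and 37.2% of all genes. Slc7a7, the y+LAT1 light chain that exports dibasic amino acids to the blood and is also found in macrophages, stood at 14.01, 13.74 and 13.17 in vehicle mice 7, 17 and 36, against 14.09, 13.94 and 13.94 in healthy mice 1, 2 and 3 (-0.35 ± 0.20, limma adjusted p = 0.214). Slc7a8, LAT2, stood at 12.68, 12.97 and 12.67 in vehicle mice, against 13.25, 13.17 and 13.25 in healthy mice, with no overlap (-0.45 ± 0.26, limma adjusted p = 0.215). Their heavy chain Slc3a2, or CD98, stood at 13.16, 13.31 and 13.20 in vehicle mice, against 13.18, 13.06 and 13.14 in healthy mice (0.10 ± 0.16, limma adjusted p = 0.676).

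The heavy chain of the basolateral exchangers thus overlapped between the groups, as did the remaining basolateral carriers. The GABA and taurine carrier Slc6a13, GAT2, stood at 12.33, 12.09 and 10.90 in vehicle mice 7, 17 and 36, against 12.08, 11.80 and 11.90 in healthy mice 1, 2 and 3, and its difference of -0.16 ± 0.25 (limma adjusted p = 0.679) was 0.28 without mouse 36. Slc43a2, LAT4, a uniporter of neutral amino acids, stood at 13.32, 13.21 and 12.89 in vehicle mice, against 13.26, 13.21 and 13.26 in healthy mice (-0.10 ± 0.16, limma adjusted p = 0.682), and was at 0.03 without mouse 36. The betaine and GABA carrier Slc6a12 and the glutamine carrier Slc38a3 had differences of -0.11 ± 0.45 and 0.02 ± 0.39.

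In the immune-associated class the signs were opposite. All 7 had differences above 0 in vehicle mice, against 9004 of all 15035 genes, and 4 were called higher, where 15.7% of all genes were. Slc38a1, SNAT1, a glutamine carrier, stood at 8.86, 9.26 and 9.31 in vehicle mice 7, 17 and 36, against 8.14, 8.15 and 8.16 in healthy mice 1, 2 and 3. The healthy mice lay within 0.02 of each other, and every vehicle mouse was well above them. The difference was 0.998 ± 0.16 (limma adjusted p = 0.00077), a 1.997-fold higher level, and the call held under all 12 alternatives.

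Slc7a11, xCT, which takes up cystine in exchange for glutamate, stood at 7.06, 7.06 and 7.78 in vehicle mice 7, 17 and 36, against 6.32, 6.23 and 6.09 in healthy mice 1, 2 and 3 (1.08 ± 0.21, limma adjusted p = 0.0024). Slc38a2, SNAT2, a carrier of small neutral amino acids, stood at 12.18, 12.37 and 13.50 in vehicle mice, against 11.60, 11.76 and 11.66 in healthy mice (1.01 ± 0.24, limma adjusted p = 0.0086). For both, mouse 36 was the highest and the groups did not overlap. Slc1a5, ASCT2, which carries glutamine, stood at 10.95, 11.70 and 10.98 in vehicle mice, against 10.51, 10.34 and 10.33 in healthy mice (0.82 ± 0.19, limma adjusted p = 0.0091), and here mouse 17 was the highest. Without mouse 17 the difference of Slc1a5 was 0.57 and still called.

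The arginine and lysine carrier Slc7a1, CAT1, stood at 9.10, 9.33 and 10.30 in vehicle mice 7, 17 and 36, against 8.87, 8.78 and 8.78 in healthy mice 1, 2 and 3. The groups did not overlap, but the difference of 0.76 ± 0.27 was not called (limma adjusted p = 0.0569) and was 0.40 without mouse 36. Slc7a5, LAT1, the leucine carrier of activated T cells, had a difference of 0.78 ± 0.30 (limma adjusted p = 0.0750), also with no overlap. Slc7a2, the CAT2 carrier that feeds arginine to macrophages, had 0.20 ± 0.27 with overlapping groups.

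**Figure D4:**
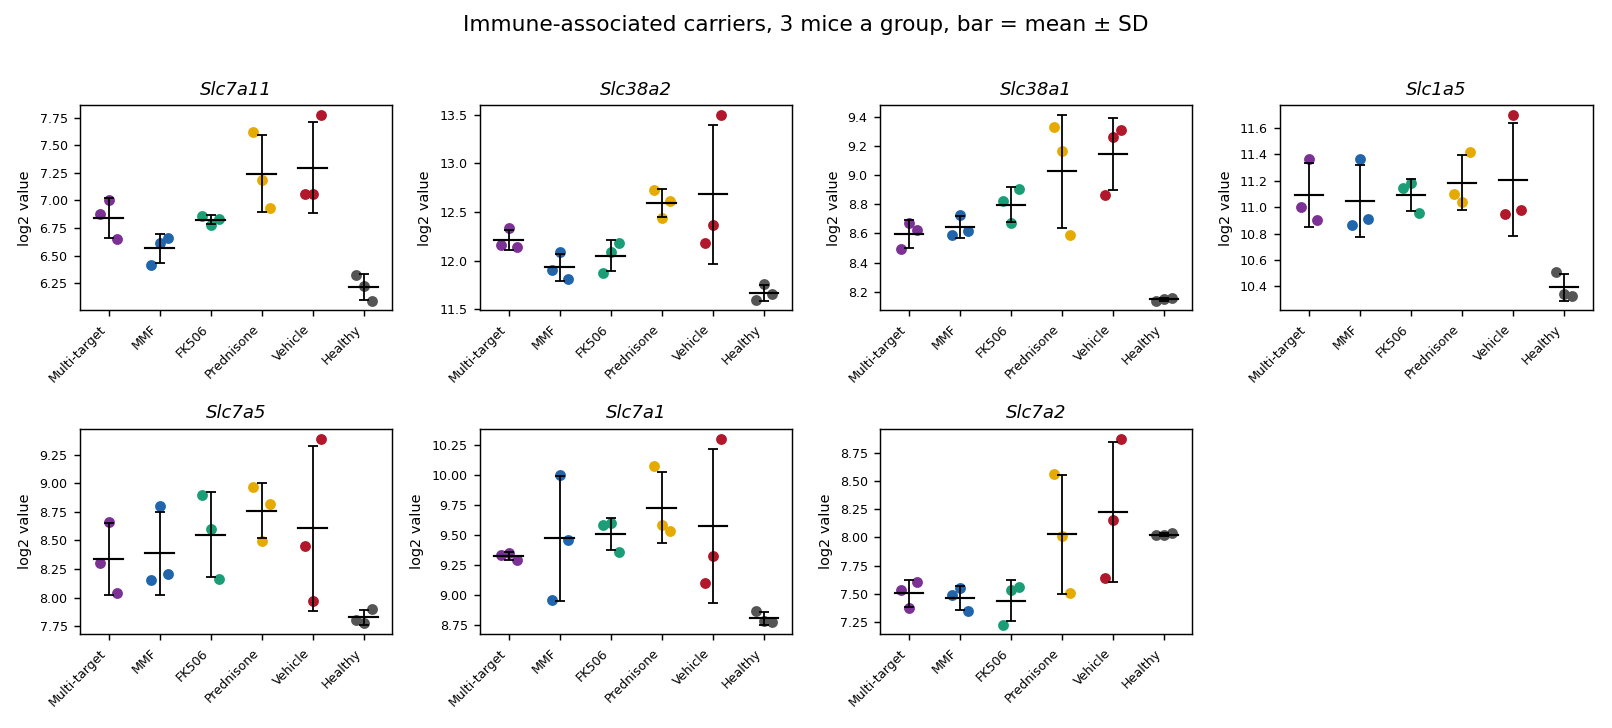
Log2 values of the 7 immune-associated carriers in each mouse (points), with the mean and SD of 3 mice as bars, for the 5 MRL/lpr groups and then the healthy mice. For 6 of the 7, all but Slc7a2, the 15 MRL/lpr mice lie above the healthy mice, by the narrowest gaps for Slc38a2, Slc7a1, Slc7a5 and Slc7a11, while Slc7a2 is lower than healthy in every multi-target, MMF and FK506 mouse.

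Markers of infiltrating cells were measured beside this class. Of 11 macrophage and myeloid markers 10 were called higher in vehicle mice, with a median of 3.48, and of 10 T cell markers 9 were called higher, with a median of 2.07. Over all genes 15.7% were called higher. The macrophage marker mean lay between 2.83 and 3.91 above the healthy mean in vehicle mice, against -0.26 to 0.20 in healthy mice. The T cell marker mean lay between 1.40 and 2.44 in vehicle mice, against -0.02 to 0.03 in healthy mice. Both lists were present in healthy mice too, with lowest log2 values of 6.34 and 3.99 in any library. The part of these cells in the carrier result was not tested. The differences of the 7 carriers lay between 0.20 and 1.08.

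The promoter of Slc7a11 is shown because it was called and holds the amino acid response element (TGATGNAA or its reverse complement TTNCATCA, the sequence bound by Atf4 complexes) at 2 places, and that of Slc1a4, an alanine, serine and cysteine carrier, because it holds one close to its start. Both are RefSeq windows on GRCm38.p6, minus strand, printed in the direction of the gene, chr3:50443564-50443863 for Slc7a11 and chr11:20332664-20332963 for Slc1a4. Capitals mark the element, with first bases at -66 and -47 in Slc7a11 and at -4 in Slc1a4.
Slc7a11: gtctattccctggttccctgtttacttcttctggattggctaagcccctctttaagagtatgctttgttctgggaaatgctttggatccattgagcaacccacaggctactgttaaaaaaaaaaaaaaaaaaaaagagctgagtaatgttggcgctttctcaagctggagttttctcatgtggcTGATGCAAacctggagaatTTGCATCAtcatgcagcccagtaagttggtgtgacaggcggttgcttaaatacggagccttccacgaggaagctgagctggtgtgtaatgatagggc
Slc1a4: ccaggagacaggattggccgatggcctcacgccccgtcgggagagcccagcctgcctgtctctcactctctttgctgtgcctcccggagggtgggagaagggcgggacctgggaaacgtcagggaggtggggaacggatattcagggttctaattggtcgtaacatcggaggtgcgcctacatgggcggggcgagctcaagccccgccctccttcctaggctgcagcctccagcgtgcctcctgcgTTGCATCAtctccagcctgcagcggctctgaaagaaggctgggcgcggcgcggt
Slc7a7 was the third member with it, and its promoter is not printed. Its element lay at -141 and -1 in 1 window, the latter closer to the start than in Slc1a4, and at -243 in another. These 2 windows overlap, and the matches at -1 and -243 are the same site. In all, 4 of the 55 member windows held the element (7.27%), with that site counted in 2 of them, against 3.97% of all windows. Among windows of genes measured here the share was 2.45%. Of the 7 immune-associated carriers 3 had a window. The AP-1 site TGANTCA, which reads the same on both strands, was in 8 of 55 member windows (14.5%). It was in 7.81% of all windows and in 5.69% of those of genes measured here. Slc1a4 stood at 10.98, 9.9 and 10.22 in vehicle mice 7, 17 and 36, against 10.06, 9.46 and 9.999 in healthy mice 1, 2 and 3 (0.52 ± 0.28, limma adjusted p = 0.179), so that 2 of the 3 members with this element were not called.

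Genes of the amino acid response were measured beside the carriers. Of 15 such genes, 7 were called higher and 2 lower in vehicle mice, with a median of 1.07, where 15.7% of all genes were called higher and 6.76% lower. Atf4 itself, the transcription factor of this response, stood at 12.12, 12.59 and 12.77 in vehicle mice 7, 17 and 36, against 11.24, 11.54 and 11.46 in healthy mice (1.08 ± 0.16, limma adjusted p = 0.00033). The stress protein Nupr1 was at 10.05, 9.72 and 11.30 in vehicle mice, against 6.90, 7.63 and 7.39 in healthy mice (3.05 ± 0.52). The lipoprotein receptor Vldlr was one of the 2 lower genes (-0.69 ± 0.16, limma adjusted p = 0.0082). The mean over the 15 genes was 0.65, 0.82 and 1.43 in vehicle mice 7, 17 and 36. Mouse 36 was also the highest vehicle mouse for Slc7a11, Slc38a1, Slc38a2, Slc7a1, Slc7a5 and Slc7a2. Slc1a5 was instead highest in vehicle mouse 17, and Slc1a4, which holds the response element, in vehicle mouse 7. Mouse 36 was the highest vehicle mouse in marker means of macrophages (3.91), T cells (2.44), B and plasma cells (2.22) and proliferation (1.68) as well. The part of the amino acid response in the carriers was not tested.

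The carriers outside these classes held the other 7 calls. Among the other Slc6 members, the serotonin carrier Slc6a4 stood at 9.46, 8.91 and 8.79 in vehicle mice 7, 17 and 36, against 10.42, 9.95 and 10.15 in healthy mice 1, 2 and 3. It was lower with no overlap (-1.12 ± 0.26, limma adjusted p = 0.0086), and the call held under all 12 alternatives. The glycine carrier Slc6a9, GLYT1, stood at 10.11, 9.96 and 10.99 in vehicle mice, against 9.34, 8.98 and 9.16 in healthy mice (1.2 ± 0.33, limma adjusted p = 0.0205). Some 27.8% of its exon bases overlap Ccdc24 on the opposite strand (0.37 ± 0.29, limma adjusted p = 0.372), and the call was lost without vehicle mouse 36 and without healthy mouse 2 or 3. Of this class 6 members, the taurine carrier Slc6a6 and the creatine carrier Slc6a8 among them, were not called, with differences between -0.81 and 0.06.

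In the class of other carriers, the y+LAT2 light chain Slc7a6 stood at 8.11, 8.40 and 9.19 in vehicle mice 7, 17 and 36, against 7.78, 7.67 and 7.86 in healthy mice 1, 2 and 3 (0.80 ± 0.22, limma adjusted p = 0.0216). Slc43a3, the purine nucleobase carrier, stood at 11.27, 11.44 and 11.12 in vehicle mice, against 10.29, 10.36 and 10.37 in healthy mice (0.94 ± 0.27, limma adjusted p = 0.0232). Slc38a10, SNAT10, stood at 12.19, 11.82 and 11.96 in vehicle mice, against 12.25, 12.24 and 12.40 in healthy mice (-0.30 ± 0.10, limma adjusted p = 0.0415). All 3 had no overlap, though for Slc38a10 vehicle mouse 7 was at 12.19 and the lowest healthy mouse at 12.24. Slc38a6 was the remaining call (0.40 ± 0.13, limma adjusted p = 0.0419). The calls of Slc43a3, Slc38a10 and Slc38a6 were each lost in at least 6 of 12 alternatives, and that of Slc7a6 in 5 of 12.

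Of the 13 other carriers 9 were not called, and the lowest difference was that of Slc7a12 (-1.30 ± 0.71), which stood at 13.23, 13.70 and 10.16 in vehicle mice 7, 17 and 36, against 13.82, 13.49 and 13.66 in healthy mice. That gene was picked after its values were seen. Mouse 36 lay far below the other vehicle mice, and mouse 7 also lay below every healthy mouse. Of the 5 lysosomal carriers none was called and none had an unadjusted limma p under 0.05, against 22.4% and 37.2% of all genes. Slc38a7, SNAT7, stood at 10.63, 10.48 and 10.61 in vehicle mice 7, 17 and 36, against 10.47, 10.43 and 10.36 in healthy mice (0.15 ± 0.15). Slc38a9, the arginine sensor of the mTORC1 pathway, stood at 9.55, 9.57 and 9.74 in vehicle mice, against 9.45, 9.43 and 9.50 in healthy mice (0.16 ± 0.21). Slc7a14 stood at 7.45, 7.83 and 7.33 in vehicle mice, against 7.83, 7.89 and 7.95 in healthy mice (-0.35 ± 0.36).

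The 3 opposite-strand genes were not called. Slc7a6os stood at 9.68, 9.72 and 9.65 in vehicle mice 7, 17 and 36, against 9.41, 9.35 and 9.50 in healthy mice 1, 2 and 3, and Slc36a1os at 8.28, 8.89 and 7.61, against 7.95, 8.17 and 7.94. Slc6a19os, a low gene, stood at 3.89, 4.05 and 5.29 in vehicle mice, against 4.23, 4.08 and 3.35 in healthy mice. Their differences were 0.26 ± 0.19, 0.24 ± 0.31 and 0.52 ± 0.97.

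Partners of the carriers were set beside them from a list of 14 measured genes, of which 2 were called higher and 4 lower in vehicle mice. Over all genes 15.7% were called higher and 6.76% lower. Tmem27, collectrin, which Slc6a19 and its relatives need at the brush border of the kidney, stood at 15.93, 15.93 and 15.39 in vehicle mice 7, 17 and 36, against 16.37, 16.49 and 16.58 in healthy mice (-0.73 ± 0.41, limma adjusted p = 0.208). The brush border peptidase Anpep was lower (-0.85 ± 0.21, limma adjusted p = 0.0126), Slc15a3, a lysosomal peptide and histidine carrier of macrophages, was higher (2.76 ± 0.44, limma adjusted p = 0.00059), and the aromatic amino acid carrier Slc16a10 was not called (-0.20 ± 0.16). Of 17 measured enzymes that use amino acids, 1 was called higher and 3 lower. Among the lower ones were the alanine transaminase Gpt2 (-0.77 ± 0.22, limma adjusted p = 0.0212) and the argininosuccinate synthase Ass1 (-1.25 ± 0.35, limma adjusted p = 0.0213).

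The treated groups were compared with vehicle to ask which carriers each treatment moved. No member was called by limma in the multi-target, MMF, FK506 or prednisone comparison with vehicle, where 0%, 1.58%, 0% and 0% of all genes were called. At an unadjusted limma p under 0.05 there were 10 members with multi-target (18.9%, against 15.6% of all genes), 14 with MMF (26.4%, against 29.9%), 13 with FK506 (24.5%, against 19.9%) and 1 with prednisone (1.89%, against 3.15%). All 4 comparisons share the same vehicle mice. Leaving out MMF mouse 1 gave 14 members called between MMF and vehicle, where 36.8% of all genes were then called, and leaving out vehicle mouse 7 gave 8, where 12.9% were.

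The median difference from vehicle over the immune-associated class was -0.45 with multi-target, -0.50 with MMF, -0.35 with FK506 and -0.05 with prednisone, against medians of all genes between -0.05 and 0.03. The class mean relative to healthy was 0.45, 0.68 and 1.29 in vehicle mice 7, 17 and 36, mouse 36 being far above the others. It lay between 0.31 and 0.53 in multi-target mice and between 0.19 and 0.58 in MMF mice. In FK506 mice it lay between 0.41 and 0.48, and in prednisone mice between 0.62 and 1.04. Every treated group thus overlapped the vehicle mice in this mean. For Slc7a11 the MMF mice 1, 14 and 27 stood at 6.42, 6.62 and 6.66, against 7.06, 7.06 and 7.78 in vehicle mice, with no overlap (-0.73 ± 0.21, limma adjusted p = 0.0632). For Slc38a1 the multi-target mice 6, 18 and 39 stood at 8.49, 8.67 and 8.63, against 8.86, 9.26 and 9.31 in vehicle mice, also with no overlap (-0.55 ± 0.16, limma adjusted p = 0.181). Slc7a2 in FK506 mice 3, 12 and 24 stood at 7.23, 7.54 and 7.56, against 7.64, 8.15 and 8.88 in vehicle mice (-0.78 ± 0.27, limma adjusted p = 0.173). In each case the member was among the 3 smallest p of its comparison. Slc38a3 with multi-target and FK506 and Slc6a19 with MMF, given below, were so too. All members named here and in the next 2 paragraphs were picked after the values were seen. Macrophage marker means lay between 1.61 and 2.14 above healthy in multi-target mice, 0.75 and 2.40 in MMF mice, 1.69 and 2.14 in FK506 mice and 2.06 and 3.71 in prednisone mice, against 2.83 to 3.91 in vehicle mice, and their part was not tested.

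The glutamine carrier Slc38a3, SNAT3, which the proximal tubule uses to draw glutamine from the blood for ammonia production, had a higher mean than in vehicle mice in all treated groups, with no test passed. It stood at 11.47, 12.02 and 11.22 in multi-target mice 6, 18 and 39, at 10.58, 11.81 and 12.08 in MMF mice 1, 14 and 27, at 12.23, 12.02 and 11.29 in FK506 mice 3, 12 and 24 and at 10.91, 11.28 and 11.17 in prednisone mice 23, 29 and 35, against 10.65, 10.79 and 9.59 in vehicle mice 7, 17 and 36. Only MMF mouse 1 lay within the range of the vehicle mice. The differences from vehicle were 1.23 ± 0.39 with multi-target (limma adjusted p = 0.197), 1.15 ± 0.39 with MMF (limma adjusted p = 0.0852), 1.5 ± 0.39 with FK506 (limma adjusted p = 0.171) and 0.78 ± 0.39 with prednisone (limma adjusted p = 0.943), none of them called. Healthy mice 1, 2 and 3 stood at 10.69, 10.15 and 10.11, so that vehicle and healthy mice overlapped. Against healthy, Slc38a3 was higher with FK506 (1.53 ± 0.39, limma adjusted p = 0.0297). That call was lost in 7 of 12 alternatives, among them quantile normalization and leaving out FK506 mouse 3, FK506 mouse 12, which held adrenal transcripts, or any 1 healthy mouse.

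Slc6a19 split the MMF mice. MMF mice 1, 14 and 27 stood at 13.72, 15.67 and 15.76, against 13.96, 13.53 and 12.19 in vehicle mice, so that mice 14 and 27 held the highest levels of the study and mouse 1 lay among the vehicle mice (1.83 ± 0.55, limma adjusted p = 0.0708). Slc6a19os on the opposite strand showed the same split, at 3.56, 6.85 and 7.28 in MMF mice 1, 14 and 27. In GENCODE M21 its exons share no bases with those of Slc6a19. Slc6a6, the taurine carrier, was at 14.37, 15.91 and 15.99 in the same mice, and Slc43a1, LAT3, at 6.71, 8.98 and 8.65. Without MMF mouse 1, Slc6a19 (2.49), Slc6a6 (1.32), Slc43a1 (1.70) and Slc38a3 (1.61) were among the 8 members called higher than vehicle, and Slc7a11 (-0.66), Slc38a2 (-0.74) and the lysosomal Slc38a7 (-0.65) among the 6 called lower. The proximal tubule marker mean ran the other way, at -0.24, -1.003 and -0.69 in MMF mice 1, 14 and 27. Relative to healthy, MMF mouse 1 was also above mice 14 and 27 in the marker means of macrophages (2.40, against 1.5 and 0.75), T cells (1.37, against 0.50 and 0.46) and proliferation (0.25, against -1.24 and -1.19). The part of these markers in the calls made without MMF mouse 1 was not tested. Slc6a20b, at 13.07, 11.50 and 11.85, was highest in MMF mouse 1, as the markers were.

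**Figure D5:**
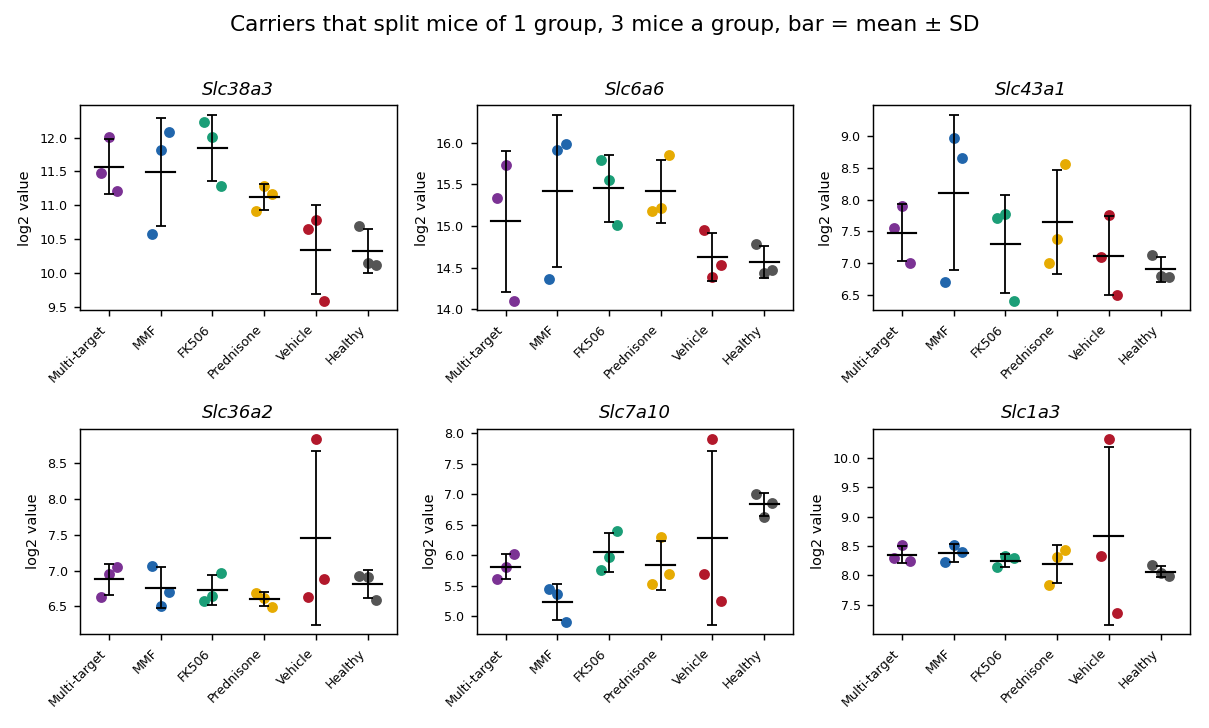
Log2 values of 6 carriers picked for uneven mice, each point a mouse, with the mean and SD of 3 mice as bars, for the 5 MRL/lpr groups and then the healthy mice. In the upper row MMF mouse 1 sits below MMF mice 14 and 27 (Slc6a6 at 14.37, against 15.91 and 15.99), and in the lower row (Slc36a2, Slc7a10, Slc1a3) vehicle mouse 17 stands above all other mice, with Slc1a3 at 10.33.

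The apical light chain Slc7a13 was uneven in every MRL/lpr group except MMF. It stood at 6.53, 5.04 and 8.24 in multi-target mice 6, 18 and 39, at 6.73, 6.39 and 6.36 in MMF mice 1, 14 and 27, at 5.40, 5.87 and 9.6 in FK506 mice 3, 12 and 24 and at 6.52, 8.58 and 5.42 in prednisone mice 23, 29 and 35. FK506 mouse 24 alone reached above the healthy mice, whose highest value was 9.23. FK506 mouse 24 also had the highest proximal tubule marker mean of its group, at -0.41, against -0.59 and -0.71 in FK506 mice 3 and 12. Slc3a1, the called apical gene, stood at 14.69, 14.34 and 14.50 in multi-target mice, at 14.05, 14.48 and 14.53 in MMF mice, at 14.77, 14.66 and 14.82 in FK506 mice and at 13.94, 14.75 and 14.28 in prednisone mice, against 14.45, 14.36 and 13.11 in vehicle mice. Only the FK506 mice lay wholly above the vehicle mice.

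Each treated group was also set against the healthy mice, all sharing the same 3 controls. With multi-target 2 members were called, where 6.98% of all genes were, 1 higher (5.33% of all genes) and 1 lower (1.65%). With MMF 6 were called (15.9%), 3 higher (9.56%) and 3 lower (6.37%). With FK506 4 were called (7.27%), 3 higher (5.73%) and 1 lower (1.54%). With prednisone 10 were called (16.7%), 9 higher (13.4%) and 1 lower (3.29%). With quantile normalization the splits into higher and lower were 0 and 1 in place of 1 and 1 with multi-target, 1 and 3 in place of 3 and 3 with MMF, 0 and 1 in place of 3 and 1 with FK506, and 3 and 2 in place of 9 and 1 with prednisone. Over all genes, quantile normalization gave 2.27% higher and 2.22% lower with multi-target, 5.74% and 6.47% with MMF, 2.52% and 2.2% with FK506, and 5.92% and 6.76% with prednisone. In prednisone mice 6 of the 7 immune-associated carriers were called higher than healthy, with a class median of 0.92, against 0.13 over all genes. The called ones were Slc1a5 (0.79 ± 0.19), Slc38a1 (0.88 ± 0.16), Slc38a2 (0.92 ± 0.24), Slc7a1 (0.92 ± 0.27), Slc7a5 (0.93 ± 0.30) and Slc7a11 (1.03 ± 0.21). Their limma adjusted p ran between 0.0033 and 0.0462. The calls of Slc38a1 and Slc7a11 held under every alternative run, while those of Slc1a5, Slc38a2, Slc7a1 and Slc7a5 were lost in 3, 5, 6 and 7 of 12 alternatives. Over all 53 members, 3 were called without prednisone mouse 23 (6.89% of all genes), 2 without prednisone mouse 35 (7.96%), and 3, 3 and 2 without healthy mouse 1, 2 or 3 (7.41%, 7.77% and 8.52%). The class median against healthy was 0.52 with multi-target, 0.50 with MMF and 0.65 with FK506, with 1, 1 and 2 members called. A direct test of prednisone against the other single drugs was not made, and multi-target against prednisone called no member.

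Slc1a5 and Slc38a10 were called in all 5 MRL/lpr groups against healthy. Slc1a5 stood at 10.999, 11.37 and 10.91 in multi-target mice 6, 18 and 39, at 10.87, 11.36 and 10.91 in MMF mice 1, 14 and 27, at 11.15, 11.18 and 10.96 in FK506 mice 3, 12 and 24 and at 11.10, 11.04 and 11.42 in prednisone mice 23, 29 and 35, against 10.51, 10.34 and 10.33 in healthy mice. No MRL/lpr mouse reached down to the healthy range. Its differences were 0.70, 0.66, 0.70 and 0.79 for those 4 groups, each ± 0.19, with limma adjusted p between 0.0141 and 0.0441. Slc38a10 lay between 11.79 and 12.04 in the multi-target mice, 11.83 and 11.95 in the MMF mice, 11.79 and 11.91 in the FK506 mice and 11.90 and 12.01 in the prednisone mice, against 12.24 to 12.40 in healthy mice. The differences were -0.41, -0.41, -0.42 and -0.35, each ± 0.10. Each of these calls in the 4 treated groups was lost on leaving out at least 1 of the mice in turn, as was that of Slc38a10 in vehicle mice, while that of Slc1a5 in vehicle mice held. Slc1a5 against healthy was lost with quantile normalization in the multi-target, MMF and FK506 groups.

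MMF mice also had Slc43a3 (0.84 ± 0.27) and Slc7a6os (0.74 ± 0.19) higher and Slc6a15 (-1.03 ± 0.28) and Slc7a10 (-1.60 ± 0.49) lower than healthy, with limma adjusted p between 0.0211 and 0.0472. The calls were lost in 9 of 12 alternatives for Slc43a3, 6 of 12 for Slc7a6os, 5 of 12 for Slc6a15 and 6 of 11 for Slc7a10. All 4 were lost without MMF mouse 14, without MMF mouse 27 and without any 1 healthy mouse. Slc7a10, ASC1, a carrier of small neutral amino acids known in brain and fat, stood at 5.44, 5.36 and 4.90 in MMF mice 1, 14 and 27, against 7.01, 6.63 and 6.86 in healthy mice 1, 2 and 3. Vehicle mice 7, 17 and 36 stood at 5.69, 7.92 and 5.25, with mouse 17 alone above the healthy mice. Mouse 17 was also the highest of all mice for Slc36a2, at 8.84, and for the glutamate carrier Slc1a3, at 10.33, against 8.34 and 7.36 in vehicle mice 7 and 36. Its adipocyte marker mean over 5 genes was 6.39 above healthy, against -0.28 and -0.22 in vehicle mice 7 and 36, and its mean over 5 urothelium markers was 3.80, against -0.34 and 0.16 in the same mice. The part of fat or urothelium in these carriers was not tested. Without mouse 17, Slc7a10 was called lower in vehicle than in healthy mice (-1.36 ± 0.29, limma adjusted p = 0.006). Some 17.9% of its exon bases overlap Lrp3 on the opposite strand. These last carriers were picked after their values were seen.

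The multi-target group was set against each single drug to ask which carriers differ between them. By limma no member was called against MMF, FK506 or prednisone, and 0% of all genes were called in each. At an unadjusted limma p under 0.05 there were 3, 1 and 1 members, which is 5.66%, 1.89% and 1.89%, against 7.49%, 0.406% and 3.35% of all genes. Leaving out MMF mouse 1 gave 7 members called between multi-target and MMF, where 16.8% of all genes were called, with Slc6a19 (-1.64) and Slc7a6os (-0.63) lower and Slc38a7 (0.59) and Slc43a2 (0.63) higher among them.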

How the data were processed

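Per the labels' protocols, kidneys were frozen before column purification of RNA, and the TruSeq kit used for the libraries does not mark strand. The authors deposited log2 expression values per gene symbol, 15035 in each of 18 libraries. The submitters' processing notes name limma and mm10; no source used here gives the aligner, counter or versions. Raised back from log2, 75.0% to 75.5% of genes per library were whole reads times 1 factor, within 0.001 reads, and 39 of the 53 members were whole in at least 17 libraries; the reads were used only to state depth, since not nearly all genes came out whole. In 23 rows the symbol had become a date, which happens to month-like symbols and not to those starting with Slc.

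Without pseudocount or filter, the deposited log2 values went into limma 3.58.1 (R 4.3.3), fitted with 6 group means, a mean-dependent prior and 12 residual degrees of freedom. All 12 comparisons were adjusted over all genes, and p-values are two-sided. Nothing in the labels pairs mice, and mouse numbers serve as names. The script was tested on simulated data. Gene positions, exon overlaps and transcript lengths came from GENCODE M21 (GRCm38) and promoters from RefSeq (GRCm38.p6), with figures drawn in matplotlib 3.10.9. Per-mouse values are given for all apical carriers, for the 5 smallest p of the disease comparison in the basolateral and immune-associated classes and the 3 smallest in the other classes, and for called drug effects; of the partner, response and enzyme lists the 3 smallest p are named, with Tmem27 and Slc16a10. A few genes that these rules would name, 1 member among them, are counted but not reported here by name. Other named genes were picked after their values were seen. Members, roles and lists were chosen with earlier results of these data known. Alternatives were a filter on the lowest 25% of genes, quantile normalization, fitting only the groups compared, a constant prior, array weights, leaving out vehicle mouse 17 with FK506 mouse 12, and leaving out each mouse.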

Additional observations from a re-analysis of the deposited data

How the results depend on the processing

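The disease calls of Slc38a1, Slc1a5, Slc6a4 and Slc7a11 held under every alternative run, and Slc38a2 lost its call only when the 2 groups were fitted alone (adjusted p = 0.0773). In that comparison 12 members were called, against 7 with the 2 groups alone (18.6% of all genes), 20 with array weights (36.7%) and 10 with quantile normalization (21.2%). Without 1 mouse 5 to 15 were called (5 without vehicle mouse 36, 9.91%, and 15 without vehicle mouse 17, 21.9%). Of the apical carriers 1 was called, against 0 with quantile normalization, 0 with the 2 groups alone and 5 with array weights. Without vehicle mouse 17 and FK506 mouse 12 it was 2 (19.3% of all genes), and without 1 mouse 0 to 3 (3 without vehicle mouse 17, 21.9%). Immune-associated calls were 4 to 5 without 1 mouse, where 9.91% to 26.8% of all genes were called. Against vehicle, array weights gave 24 members with MMF (44.9% of all genes), 7 with FK506 (15.5%) and 15 with multi-target (18.5%). Without 1 mouse the counts were 0 to 14 with MMF (14 without MMF mouse 1, 36.8%) and 0 to 0 with FK506, prednisone and multi-target. Against healthy, MMF gave 37 with array weights (59.1% of all genes) and 0 to 22 without 1 mouse (22 without MMF mouse 1, 38.6%). FK506 gave 1 with quantile normalization (4.72%), 22 with the 2 groups alone (24.4%), 32 with array weights (56.9%), 0 without FK506 mouse 12 and vehicle mouse 17 (1.42%), and 0 to 5 without 1 mouse (5 without FK506 mouse 24, 7.73%). Prednisone gave 5, 19 and 21 under the first 3 of these (12.7%, 27.3% and 37.9%), and multi-target gave 1, 17 and 39 (4.49%, 21.5% and 66%). Without 1 mouse, prednisone gave 2 to 12 (2 without prednisone mouse 35, 7.96%, and 12 without prednisone mouse 29, 19.7%). Multi-target then gave 0 to 3 (3 without multi-target mouse 39, 8.6%). Multi-target against MMF gave 23 with array weights (46.1%) and 0 to 7 without 1 mouse (7 without MMF mouse 1, 16.8%), and against FK506 it gave 7 with array weights (13.6%). The array weight fit gave a warning that it had not converged. Without the lowest 25% of genes, class means relative to healthy cover only the members left by the filter. They were -0.37 in place of -0.58 (apical, MMF) and 0.0587 in place of 0.12 (basolateral, MMF). The immune-associated mean was 0.54 in place of 0.40 with multi-target and 0.63 in place of 0.45 with FK506. With quantile normalization the immune-associated mean was 0.25 with multi-target, 0.30 with FK506 and 0.56 in place of 0.78 with prednisone. Disease differences that changed sign, none of them called as reported, were Slc36a2 (-0.0511 without vehicle mouse 17 and FK506 mouse 12, -0.0511 to 1.05 without 1 mouse), Slc6a18 (0.0259 with array weights, -0.58 to 0.15 without 1 mouse), Slc6a13 (0.14 with array weights, -0.44 to 0.28 without 1 mouse), Slc43a2 (-0.19 to 0.0251 without 1 mouse), Slc38a9 (-0.0625 with quantile normalization), Slc36a1os (-0.0423 with quantile normalization, -0.0714 without vehicle mouse 17 and FK506 mouse 12, -0.0714 to 0.57 without 1 mouse) and Slc6a19os (-0.69 with quantile normalization). Quantile normalization shifted the median of all genes by -0.16 in the disease comparison, -0.10 with FK506 and -0.17 with prednisone against healthy. The cause was not tested. No paired analysis was possible because mouse numbers are names and the groups compared share fewer than 2 of them. With 3 mice a group, the spread between mice limits every call.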
